A study of Rattus norvegicus with 6 samples.

Results

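Alveolar type 1 cells are the thin, flat epithelial cells that cover most of the gas exchange surface of the lung. The genes described are 8 genes widely used to recognise these cells, Ager, Aqp5, Cldn18, Pdpn, Rtkn2, Emp2, Clic5 and Hopx, listed by name and not by a threshold on their values. The list was chosen with earlier results of these data known. All 8 were found by gene symbol among the 17833 genes of the expression table. Bulk RNA-seq was performed on pulmonary veins (PVs) of wild type Sprague-Dawley (SD) rats that underwent surgery at postnatal day 1 and were studied at postnatal day 21. The 3 rats of the BPVB group had bilateral pulmonary vein banding, in which a tied suture narrows the veins of both lungs. The 3 rats of the sham group had the same chest opening and a suture that was placed and withdrawn, without constriction. The sample was the vein of the right upper lobe, taken whole from the lung and frozen, so each library holds the RNA of every cell type in that piece.

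Type 1 cells lie back to back with capillary endothelium and form, with it, the barrier across which oxygen diffuses. They are held together by claudins, they carry water and sodium channels, and in the adult they can be renewed from alveolar type 2 cells, the cuboidal neighbours that make surfactant. Few of the genes used to mark them belong to type 1 cells alone. Podoplanin is also a marker of lymphatic endothelium and mesothelium, Hopx is expressed in heart muscle, Clic5 in endothelium, and Cldn18 in type 2 cells.

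Expression was given as FPKM, the number of sequenced fragments of a gene relative to its length and to the total counted in the library, a scale on which genes of different length can be compared. The libraries held between 23439506 and 29725808 counted fragments, and each BPVB library was deeper than each sham library. Libraries of the same group differed by 4.63 to 6.54 times the variance that counting alone would give. Heart muscle markers led the lists used for reference, with summed levels of 11356 to 11770 FPKM after banding, against 16100 to 16443 FPKM after sham surgery. In the same sham libraries, 12 markers of epithelium in general summed to 3.21 to 4.29 FPKM and 10 markers of alveolar type 2 cells to 71.6 to 74.8 FPKM. Such sums are levels of RNA and do not measure shares of cells.

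Of the 8 genes, 7 were significantly higher and 1, Hopx, was significantly lower after banding. Groups were compared with limma, a linear model fitted over all 15150 genes with a mean of at least 0.1 FPKM, on log2(FPKM + 0.5), and a gene passed at a Benjamini-Hochberg adjusted p under 0.05. Over all tested genes, 17.2% were higher, 14.3% were lower, and 31.5% passed in either direction. 5 of the 8, Cldn18, Ager, Aqp5, Pdpn and Rtkn2, were higher with a log2 fold change above 1, which 2.24% of tested genes were. In all 8 genes the libraries of the 2 groups did not overlap, which held for 45.6% of tested genes. The median log2 fold change of the 8 genes was 1.81, against 0.02 over all tested genes. As the 8 genes were chosen with earlier results known, these shares and medians describe them and are not a test of the list. In bulk tissue, a change in the number of cells of a type and a change in the RNA of each cell cannot be told apart.

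**Figure D1:**
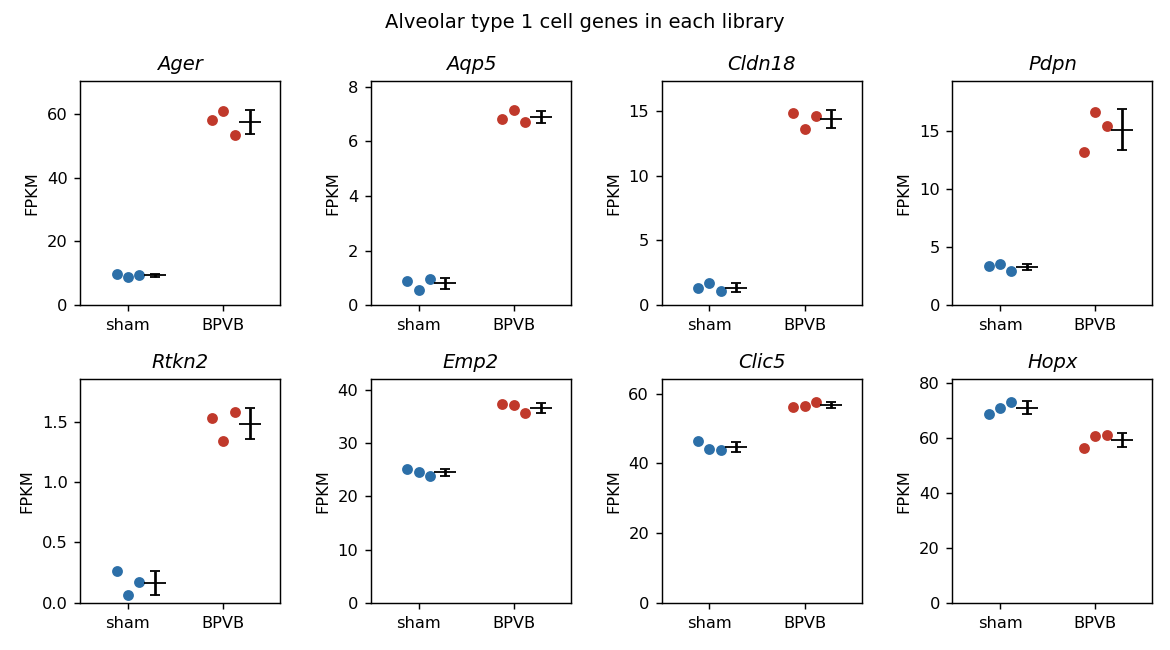
Expression of the 8 type 1 cell genes in every library, with FPKM on a linear axis that starts at 0 in each panel, 1 point per rat, and the mean ± SD of 3 rats beside the points. The BPVB points lie above the sham points for 7 genes, with gaps that are wide for Ager, Aqp5, Cldn18, Pdpn and Rtkn2 and narrow for Emp2 and Clic5, and below them for Hopx.

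Ager (NCBI Gene 81722) encodes RAGE, a receptor of the immunoglobulin family that sits on the basal face of type 1 cells and binds S100 proteins and HMGB1. Replicates 1, 2 and 3 of the BPVB group reached 58.2, 61.0 and 53.5 FPKM, and those of the sham group 9.83, 8.95 and 9.55 FPKM. The lowest BPVB value was well above the highest sham value, and the sham rats lay close together. The mean was 57.6 ± 3.77 FPKM in the BPVB group and 9.45 ± 0.45 FPKM in the sham group (SD, n = 3 each), a 6.10-fold difference with a log2 fold change of 2.54 ± 0.061 (SE) and an adjusted p of 2.1e-08 by limma. Each sham value rested on 298 to 332 fragments and each BPVB value on 2205 to 2260 fragments. The relative SD of the sham libraries, 4.76%, was no larger than the 5.61% that counting alone gives. In the BPVB group Ager reached the level of Hopx and Clic5, whereas in the sham group it lay below Hopx, Clic5 and Emp2.

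Aqp5 (NCBI Gene 25241), a water channel of the apical membrane of type 1 cells and of secretory glands, was at a low level in the sham veins. Its level was 0.881, 0.558 and 0.962 FPKM in the sham libraries, from 20 to 35 fragments each. In the BPVB libraries it was 6.82, 7.13 and 6.69 FPKM, from 278 to 304 fragments. The 3 BPVB values lay within a narrow range, far above the sham values. The means were 6.88 ± 0.22 and 0.800 ± 0.21 FPKM (SD, n = 3), an 8.60-fold difference, and the log2 fold change was 2.52 ± 0.14 (SE, limma adjusted p = 2.3e-06).

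Cldn18 (NCBI Gene 315953) encodes a claudin, a protein that seals the tight junctions between alveolar epithelial cells, and has a second form made by the stomach that gene-level values do not separate. It had the largest rise of the 8 genes. The BPVB rats had 14.9, 13.6 and 14.6 FPKM, and the sham rats had 1.33, 1.70 and 1.06 FPKM. No sham rat came near the BPVB rats, and the sham rats varied by a relative SD of 23.5%, against 10.5% from counting. The means of 14.4 ± 0.66 and 1.36 ± 0.32 FPKM (SD, n = 3) differed 10.6-fold, with a log2 fold change of 3.01 ± 0.13 (SE, limma adjusted p = 5.7e-07).

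Pdpn (NCBI Gene 54320) encodes podoplanin, a mucin-type membrane protein that links the surface of type 1 cells to their actin cytoskeleton. After banding the 3 rats had 13.2, 16.6 and 15.5 FPKM, and after sham surgery 3.40, 3.51 and 2.98 FPKM. BPVB replicate 1 was the lowest of its group and still several times above the highest sham rat. The means were 15.1 ± 1.74 and 3.30 ± 0.28 FPKM (SD, n = 3), a 4.58-fold difference, with a log2 fold change of 2.04 ± 0.10 (SE, limma adjusted p = 1.4e-06). Pdpn also marks lymphatic endothelium, and 4 of 6 lymphatic markers were higher and 1 was lower in the BPVB group. Their summed level was 177 to 188 FPKM after banding, against 78.4 to 80.3 FPKM after sham surgery, and none was at 0. Prox1, the transcription factor that defines lymphatic endothelium, had a log2 fold change of 1.05 ± 0.12 (limma adjusted p = 2.5e-04), and Ccl21, the chemokine made by that endothelium, one of 2.11 ± 0.053 (limma adjusted p = 2.8e-08), whereas Lyve1, a hyaluronan receptor, fell by 0.47 on the log2 scale (limma adjusted p = 1.6e-04). The part of lymphatic endothelium in the rise of Pdpn was not tested. Of mesothelium, the lung's outer lining and another source of podoplanin, 3 of 4 tested markers were lower and 0 were higher, and the summed level of the 7 listed was 2.28 to 2.40 FPKM after banding, against 4.21 to 5.60 FPKM after sham surgery. Upk3b and Msln, surface proteins of mesothelium, had log2 fold changes of -0.96 and -0.73 (limma adjusted p = 0.004 and 0.024). Upk3b, with means of 0.115 FPKM after banding and 0.688 FPKM after sham surgery, was at -3.06 in a limma-voom fit of recovered fragment counts, and Msln did not pass without BPVB replicate 2 (adjusted p = 0.074) or BPVB replicate 3 (adjusted p = 0.062). Lrrn4 had a log2 fold change of -0.46 (adjusted p = 0.061), and it passed without BPVB replicate 2 (0.042), under quantile normalization (0.027) and in the limma-voom fit (0.035). Upk1b, named for its lost calls, was lower by the same test but did not pass without BPVB replicate 1 (adjusted p = 0.055), BPVB replicate 2 (0.067) or sham replicate 1 (0.074), nor in the limma-voom fit (0.12). The part of mesothelium in the values of Pdpn was not tested.

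Rtkn2 (NCBI Gene 309729), a protein with a pleckstrin homology domain, had the lowest level of the 8 genes in both groups. Its level was 1.53, 1.34 and 1.58 FPKM in the BPVB libraries, from 381 to 512 fragments. In the sham libraries it was 0.266, 0.0625 and 0.169 FPKM, from 69, 16 and 44 fragments. The groups did not overlap, but the sham rats spread by a relative SD of 61.3%, against 15.2% from counting. The means of 1.48 ± 0.13 and 0.166 ± 0.10 FPKM (SD, n = 3) differed 8.94-fold. Because 0.5 was added to values this low, the log2 fold change was only 1.58 ± 0.15 (SE, limma adjusted p = 8.3e-05), and it ran from 1.09 with 1 added to 3.37 in a limma-voom fit of the recovered fragment counts. Rtkn2 is also expressed in lymphocytes. Of 7 lymphocyte markers, 1, Cd4, was higher (log2 fold change 0.72, limma adjusted p = 4.5e-04), and 6, among them the T cell receptor components Cd3e and Cd3g with log2 fold changes of -0.08 and -0.40, did not pass (limma adjusted p = 0.77 and 0.44). The lymphocyte markers summed to 12.3 to 13.3 FPKM after banding, against 9.06 to 9.65 FPKM after sham surgery, none was at 0 in a whole group, and their part in the rise of Rtkn2 was not tested.

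Emp2 and Clic5 rose by much less, from levels that were already high in the sham veins. Emp2 (NCBI Gene 360468), a membrane protein with 4 membrane-spanning segments that is related to peripheral myelin protein 22, was at 37.2, 37.1 and 35.6 FPKM in the banded rats and at 25.1, 24.6 and 23.8 FPKM after sham surgery. The groups were tight and separate, and the means of 36.6 ± 0.93 and 24.5 ± 0.61 FPKM (SD, n = 3) differed 1.50-fold (log2 fold change 0.57 ± 0.043, limma adjusted p = 1.7e-05). Clic5 (NCBI Gene 94272), a chloride intracellular channel family protein that associates with the actin cytoskeleton, was at 56.2, 56.4 and 57.7 FPKM after banding and at 46.5, 44.2 and 43.7 FPKM after sham surgery. Every BPVB rat was above every sham rat, by a margin that was small beside that of Ager, and the means of 56.8 ± 0.82 and 44.8 ± 1.46 FPKM (SD, n = 3) differed 1.27-fold (log2 fold change 0.34 ± 0.038, limma adjusted p = 1.8e-04). Clic5 is also made by endothelium. Of 6 general endothelial markers, 4 were lower and 0 were higher, with summed levels of 951 to 966 FPKM after banding, against 1059 to 1064 FPKM after sham surgery, and none was at 0. When 1 library was left out, 3 to 4 were lower, Tek losing its call without each library in turn except sham replicate 3 (adjusted p from 0.056 to 0.12). Pecam1 and Cdh5, adhesion molecules of endothelial junctions, had log2 fold changes of -0.17 and -0.34 (limma adjusted p = 0.0012 and 3.3e-05). Vwf, a clotting factor carrier, had one of -0.03 (limma adjusted p = 0.29). The part of endothelium in the rise of Clic5 was not tested.

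Hopx (NCBI Gene 171160), a small homeodomain protein that does not bind DNA itself and is expressed in type 1 cells and in heart muscle, was the only one of the 8 genes to fall. The banded rats had 56.4, 60.6 and 61.0 FPKM, and the sham rats had 68.6, 71.0 and 73.2 FPKM. The highest BPVB value stayed below the lowest sham value. The mean was 59.3 ± 2.58 FPKM in the BPVB group and 70.9 ± 2.33 FPKM in the sham group (SD, n = 3), a change of -16.4%, and the log2 fold change was -0.26 ± 0.043 (SE, limma adjusted p = 0.002). Heart muscle markers moved with it in part. Of 7 such markers, 4 were lower and 3 were higher, their median log2 fold change was -0.36, and none was at 0. Under quantile normalization 3 were lower and 3 were higher, Myl7 losing its call (adjusted p = 0.31). The sarcomere genes Myh6 and Tnnt2 had log2 fold changes of -0.36 and -0.36 (limma adjusted p = 1.5e-04 and 2.9e-06), Tnni3 had the lowest at -0.69 (adjusted p = 9.9e-07), and Ryr2, the calcium release channel, had the highest at 0.38 (adjusted p = 1.3e-04). The part of heart muscle in the fall of Hopx was not tested.

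The order of the 8 genes by level also differed between the groups. In the sham veins it ran from Hopx through Clic5, Emp2, Ager, Pdpn, Cldn18 and Aqp5 to Rtkn2, and the ranges of no neighbouring pair overlapped. In the BPVB veins it ran from Hopx through Ager, Clic5, Emp2, Pdpn, Cldn18 and Aqp5 to Rtkn2, and the ranges of Hopx and Ager, of Ager and Clic5, and of Pdpn and Cldn18 overlapped. Among all tested genes ranked by FPKM, Ager was at percentile 59.8 in the sham group and 91.5 in the BPVB group, Cldn18 at 24.6 and 69.6, and Pdpn at 37.1 and 70.8. Hopx and Clic5 stayed near the top, Hopx at percentile 93.1 and 91.8 and Clic5 at 89.1 and 91.3.

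**Figure D2:**
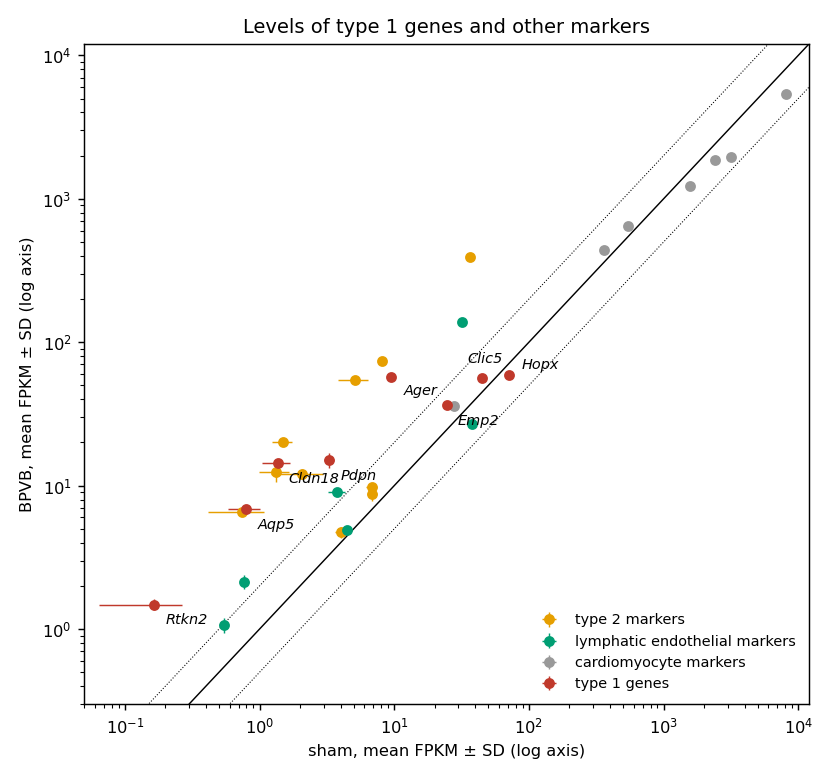
Mean FPKM of the BPVB group against that of the sham group, on log axes, for the type 1 cell genes, type 2 markers, lymphatic endothelial markers and heart muscle markers, with bars for the SD of 3 rats. The solid line marks equal levels and the dotted lines a 2-fold difference. Ager, Aqp5, Cldn18, Pdpn and Rtkn2 lie above the upper dotted line among the type 2 markers, while Emp2, Clic5 and Hopx lie near the solid line.

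The sequences upstream of the genes were set beside these values because the genes differ widely in how much they changed. For all 8 genes, the 250 bases before the annotated start were read from RefSeq (rat assembly GRCr8), along with those of 33469 promoters in all. The window of Aqp5 on the plus strand, at chr7:132601278-132601527, is shown because it was the richest in G and C of the 8, at 83.2% against a median of 51.2% over all promoters. The window of Rtkn2 on the minus strand, at chr20:20608863-20609112, is shown because it held 4 GC boxes, the most of the 8. By these coordinates its last base is the first of the annotated gene, and neither window extends further into its gene. Both are written 5′ to 3′ in the direction of the gene, with the letters GGGCGG, or CCGCCC where the match is on the other strand, in capitals.
Aqp5: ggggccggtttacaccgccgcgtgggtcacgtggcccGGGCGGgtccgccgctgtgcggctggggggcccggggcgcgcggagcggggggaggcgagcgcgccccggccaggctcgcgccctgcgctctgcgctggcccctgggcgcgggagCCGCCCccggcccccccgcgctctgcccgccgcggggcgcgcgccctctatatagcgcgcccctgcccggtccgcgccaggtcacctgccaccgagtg
Rtkn2: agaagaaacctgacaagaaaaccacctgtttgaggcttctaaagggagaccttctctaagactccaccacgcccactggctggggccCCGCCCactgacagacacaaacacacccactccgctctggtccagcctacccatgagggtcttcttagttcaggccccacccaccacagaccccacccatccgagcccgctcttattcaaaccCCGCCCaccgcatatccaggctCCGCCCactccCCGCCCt

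The GC box GGGCGG, a motif bound by Sp family factors and chosen after the sequences were seen, was present on either strand in 6 of the 8 windows and in 30.5% of all promoters. Ager and Hopx were the members without it. The windows of Ager, Hopx and Cldn18 lie wholly, and that of Pdpn in part, inside the annotated span of their own gene. The core CAAGTG, bound by the lung transcription factor NKX2-1 (CACTTG on the other strand), was present in 1 of the 8 windows, that of Cldn18, and in 11.7% of all promoters. It is shown in capitals within 30 bases of the minus strand at chr8:109144777-109144806.
Cldn18: agctcagccagaCAAGTGcctcttggggct
The core GGAATG of TEAD factors, the DNA-binding partners of YAP and TAZ (CATTCC on the other strand), was present in 0 of the 8 windows and in 12.1% of all promoters. A match of so few letters is a description of the window, and no binding was measured.

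Of 23 further genes known to be high in type 1 cells, 14 were higher, 5 were lower and 4 did not pass, with a median log2 fold change of 0.52. When 1 library was left out, 13 to 14 were higher and 4 to 5 were lower. 7 of them were higher with a log2 fold change above 1, and 5 were when 1 was added in place of 0.5. Sec14l3, a lipid-binding protein, had the highest with 0.5 added, 2.77 ± 0.13 (limma adjusted p = 9.8e-07), with 8.75, 7.72 and 8.75 FPKM after banding and 1.05, 0.708 and 0.696 FPKM after sham surgery. Akap5, a kinase anchoring protein, rose by 1.44 ± 0.12 (adjusted p = 2.5e-05) and Gprc5a, an orphan receptor of the lung epithelium, by 0.79 ± 0.072 (adjusted p = 5.5e-05) on the log2 scale. The subunits of the epithelial sodium channel, which draws fluid out of the air space, were picked out after their values were seen, and all 3 rose, with log2 fold changes of 1.81 for Scnn1a, 1.39 for Scnn1b and 1.37 for Scnn1g (limma adjusted p = 5.3e-06, 3.3e-04 and 5.3e-04). Scnn1b rested on 0, 1 and 8 fragments in the sham libraries and Scnn1g on 7, 12 and 21, so their order among themselves and beside Sec14l3 is not settled. With 1 added the log2 fold changes of Scnn1a, Scnn1b and Scnn1g were 1.48, 0.89 and 0.94, and in the limma-voom fit they were 2.37, 4.91 and 2.83, where Sec14l3 was at 3.37. The lowest was Timp3, an inhibitor of matrix proteases that many other cells make, at -0.59 ± 0.025 (adjusted p = 5.7e-07), from means of 184 FPKM in the BPVB group and 278 FPKM in the sham group. The genes that fell, Cav1, Cav2, Timp3, Ahnak and Agrn, named after their values were seen, had sham means from 22.5 to 510 FPKM, and Agrn did not pass without BPVB replicate 1 (adjusted p = 0.06), BPVB replicate 2 (0.068), sham replicate 2 (0.061) or sham replicate 3 (0.068). Cav1 did not pass under quantile normalization (log2 fold change -0.048, adjusted p = 0.14).

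Of 7 tested transcription regulators known in type 1 cells, 5 were higher, 0 were lower and 2 did not pass, and the median log2 fold change was 0.26. Nkx2-1, the factor that sets lung epithelial identity, was at 1.69, 1.20 and 2.04 FPKM in the banded rats and at 0.284, 0.0853 and 0.483 FPKM in the sham rats, a log2 fold change of 1.46 ± 0.22 (limma adjusted p = 0.0011), which was 1.04 with 1 added and 2.80 in the limma-voom fit. Klf5, an epithelial zinc finger factor, rose by 1.74 ± 0.13 on the log2 scale (adjusted p = 1.6e-05), and by 2.76 in that fit, so the order of Nkx2-1 and Klf5 depends on the scale. Wwtr1, which encodes the co-activator TAZ, had the lowest value, 0.02 ± 0.070 (adjusted p = 0.83), at mean levels of 37.2 and 36.6 FPKM. The call of Foxa2 was lost without BPVB replicate 1 (adjusted p = 0.059), BPVB replicate 3 (0.075) or sham replicate 2 (0.07), and that gene is named for this reason. Of 8 target genes of YAP and TAZ, 4 were higher, 2 were lower and 2 did not pass, and 3 to 4 were higher and 2 to 3 lower when 1 library was left out. Ankrd1, a stretch-induced protein that heart muscle also makes, rose by 1.19 ± 0.019 (adjusted p = 1.4e-09) and Ccn2, a matricellular protein, by 0.28 ± 0.028 (adjusted p = 9.3e-05), while Ccn1, its close relative, fell by 0.67 on the log2 scale (adjusted p = 7.6e-07).

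The ligands of RAGE, the receptor that Ager encodes, did not move in 1 direction. Of 7 ligand genes, 3 were higher, 3 were lower and 1 did not pass. S100a8 and S100a9, the calcium-binding proteins of neutrophils, fell by 1.45 and 1.20 on the log2 scale (limma adjusted p = 0.0021 and 6.4e-05), and S100b, a related protein of glia and other cells, rose by 0.78 (adjusted p = 0.0053). S100a4, S100a11, Hmgb1 and S100a1 are named after their values were seen. S100a4 rose by 0.48, from a mean of 91.2 to 127 FPKM, and S100a11 by 0.29, from 260 to 319 FPKM (limma adjusted p = 1.9e-05 and 5.5e-05). The 7 ligand genes summed to 566 to 572 FPKM after banding, against 488 to 491 FPKM after sham surgery. Hmgb1, a chromatin protein that acts as a danger signal outside the cell, had a log2 fold change of -0.10 (adjusted p = 0.13). S100a1, with a log2 fold change of -0.11 and an adjusted p of 0.048, lost its call in 10 of 16 other settings.

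Close relatives of the members moved in both directions. Of 18 relatives tested, 6 were higher, 4 were lower and 8 did not pass, with a median log2 fold change of 0.09. Aqp1, the water channel of endothelium and red cells, fell while Aqp5 rose, with 387, 404 and 409 FPKM after banding and 639, 655 and 644 FPKM after sham surgery (log2 fold change -0.69 ± 0.027, limma adjusted p = 3.5e-07). Aqp4, named after its values were seen, rose by 1.31 ± 0.14 (adjusted p = 1.5e-04), from 0.111 to 0.125 FPKM in the sham libraries to 0.879 to 1.24 FPKM in the BPVB libraries, and by 0.87 with 1 added and 3.03 in the limma-voom fit. Among the relatives of Cldn18, Cldn1, a claudin of many epithelia, rose by 1.43 (adjusted p = 1.7e-04), Cldn5, the endothelial claudin, had a log2 fold change of 0.02 (adjusted p = 0.74), and Cldn12 had one of -0.31 (adjusted p = 0.021) that did not pass without BPVB replicate 1 (0.052), BPVB replicate 2 (0.066), sham replicate 1 (0.074) or sham replicate 3 (0.053). Among the relatives of Clic5, Clic3 rose by 1.56, Clic1 by 0.28 and Clic4 by 0.17 (adjusted p = 3.0e-04, 0.0018 and 0.0033), Clic3 by 2.62 in the limma-voom fit, and Clic2 had a log2 fold change of -0.12 (adjusted p = 0.16, and 0.039 without BPVB replicate 1). No relative of Emp2 was called higher, with log2 fold changes of -0.14 for Emp1, -0.27 for Pmp22 and 0.02 for Emp3 (adjusted p = 0.013, 4.1e-04 and 0.86). Emp1 did not pass under quantile normalization, where its value was -0.03 (adjusted p = 0.48). Rtkn, the relative of Rtkn2, had one of -0.09 (adjusted p = 0.62).

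**Figure D3:**
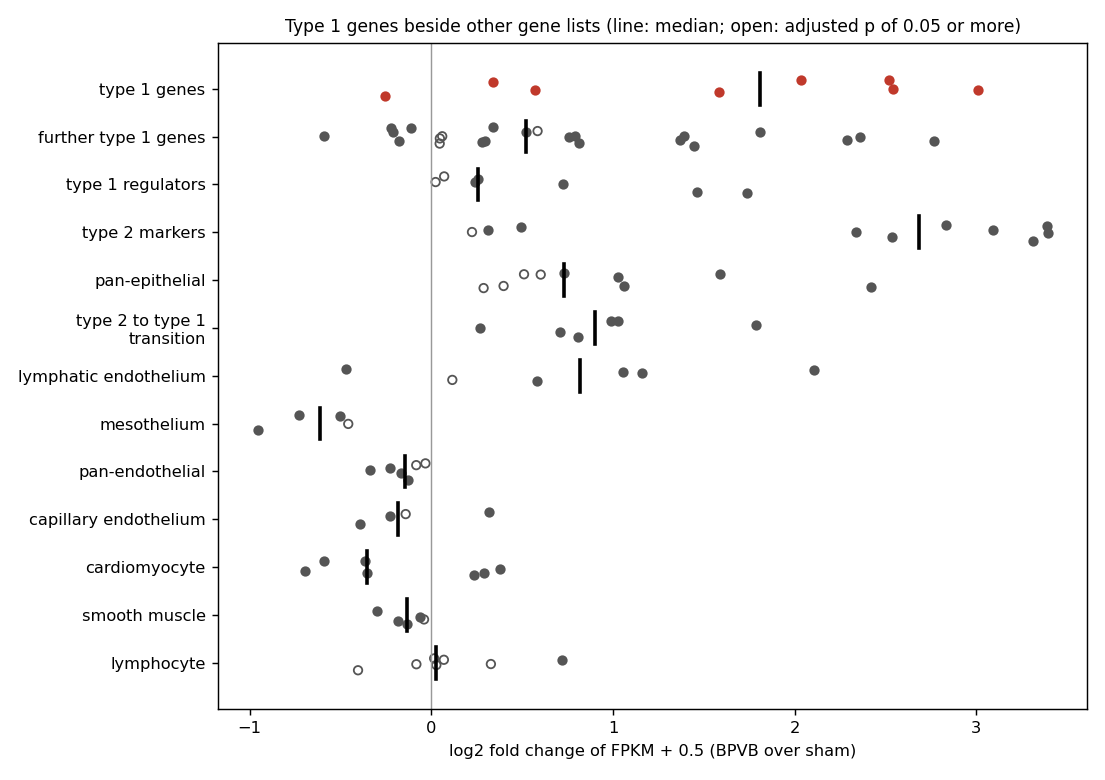
Log2 fold change of FPKM + 0.5, BPVB over sham, for the tested genes of 13 lists, with 1 point per gene, a bar at the median of each list, and open points for genes that did not pass. The type 1 cell genes spread from -0.26 to 3.01 with a median of 1.81, between those of the type 2 markers (2.68) and of the genes of the transition between both cell types (0.90).

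Markers of alveolar type 2 cells moved with the type 1 cell genes. Of 10 such markers, 9 were higher and 1 did not pass, their median log2 fold change was 2.68, and their summed level was 568 to 613 FPKM after banding, against 71.6 to 74.8 FPKM after sham surgery. None was at 0 in a whole group, and 8 to 9 were higher when 1 library was left out, Abca3 losing its call without BPVB replicate 1 or 3 or sham replicate 1 or 3 (adjusted p from 0.089 to 0.11). Sftpc and Sftpb, the surfactant proteins that define the cell type, rose by 3.40 ± 0.046 and 3.31 ± 0.14 on the log2 scale (limma adjusted p = 8.6e-10 and 5.7e-07), and Etv5, a transcription factor of type 2 cells, had the lowest value at 0.22 (adjusted p = 0.13). Of 9 tested markers of epithelium in general, 5 were higher, 0 were lower and 4 did not pass, and the 12 listed summed to 13.9 to 15.3 FPKM in the BPVB libraries, above the sham libraries given earlier. Cldn4 and Elf3 of that list were at 0 in all sham libraries and at no more than 8 fragments in any BPVB library. Epcam, an adhesion molecule of nearly all epithelia, was at 5.26, 5.10 and 3.18 FPKM in the banded rats and at 0.605, 0.497 and 0.201 FPKM in the sham rats (log2 fold change 2.42 ± 0.22, adjusted p = 5.7e-05). Cdh1, the epithelial cadherin, rose by 1.59 (adjusted p = 5.3e-05), and Esrp2, a splicing factor, had the lowest value at 0.29 (adjusted p = 0.35). In the limma-voom fit the log2 fold changes of Epcam and Cdh1 were 3.41 and 2.36. The part of type 2 cells and of other lung epithelium taken with the vein in the rise of the type 1 cell genes was not tested.

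Of the genes that mark the passage from type 2 to type 1 cells, 6 of 6 tested were higher, and 5 to 6 when 1 library was left out. Itgb6, named for its lost calls, did not pass without BPVB replicate 2 (adjusted p = 0.063), sham replicate 2 (0.063) or sham replicate 3 (0.066). Cldn4 and Areg were too low to be tested, with 0 fragments in all sham libraries and no more than 8 in any BPVB library. Sfn and Krt17 of that list were not in the expression table, and Krt8 and Cldn4 are also counted among the epithelial markers. Krt8, a keratin of that passage and of simple epithelia, rose by 1.03 ± 0.12 on the log2 scale (limma adjusted p = 2.0e-04), Nupr1, a stress-induced nuclear protein, by 1.79 (adjusted p = 2.8e-09), and Lgals3, a galectin that macrophages also make, by 0.27 (adjusted p = 5.3e-04). Nupr1 and Lgals3 had means of 202 and 93.8 FPKM after banding, and of 58.2 and 77.8 FPKM after sham surgery. Those levels lay far above the sums of the epithelial markers, and the part of other cells in them was not tested. Airway markers were uneven. Scgb1a1, the secretoglobin of club cells, was the only tested gene of its list and rose by 2.52 ± 0.13 (adjusted p = 1.6e-06), while Scgb3a2, another secretoglobin, had 1 fragment in all 6 libraries together. Of 5 tested markers of ciliated cells, 0 were higher, 1, Tppp3, was lower (log2 fold change -0.67, adjusted p = 9.0e-06) and 4 did not pass, among them Tekt1 at 0.03 and Ccdc39 at -0.10 (adjusted p = 0.96 and 0.77). Rsph1, named for a gained call, passed without BPVB replicate 3 (log2 fold change -0.62, limma adjusted p = 0.041). Tppp3 had means of 85.3 FPKM after banding and 135 FPKM after sham surgery, whereas Tekt1 and Ccdc39 had sham means of 0.326 and 0.341 FPKM. The part of cells other than ciliated cells in the fall of Tppp3 was not tested. Foxj1, the factor that defines ciliated cells, also had 1 fragment in all 6 libraries, so both groups were at the limit of detection.

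Markers of capillary endothelium, the neighbour of type 1 cells in the alveolar wall, and of the smooth muscle of vessels were more often lower than higher. Over all tested genes, 14.3% were lower and 17.2% were higher. Of 4 tested markers of lung capillary endothelium, 1 was higher and 2 were lower, with summed levels of 115 to 121 FPKM after banding, against 132 to 135 FPKM after sham surgery. Ednrb, an endothelin receptor, rose by 0.32 (limma adjusted p = 0.0036), and Gpihbp1, which anchors lipoprotein lipase to capillaries, fell by 0.39 on the log2 scale (adjusted p = 3.1e-04). Of 5 smooth muscle markers, 4 were lower and 0 were higher, 3 to 4 were lower when 1 library was left out and 2 were under quantile normalization, with Myh11, the smooth muscle myosin, at -0.30 (adjusted p = 4.2e-05), Acta2, an actin, at -0.18 (adjusted p = 1.3e-04) and Myl9, a myosin light chain, at -0.04 (adjusted p = 0.22).

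The type 1 cell genes were then compared with Sftpc and Epcam within each library, since a plain ratio of 2 genes in 1 library does not depend on how that library was scaled. With 0.5 added to each FPKM, as in the main comparison, this no longer holds. The FPKM ratio of Ager to Sftpc was 0.159, 0.149 and 0.136 after banding and 0.281, 0.241 and 0.254 after sham surgery. The groups did not overlap, and the ratio was lower in the BPVB group, at 0.148 ± 0.011 against 0.259 ± 0.021 (SD, n = 3). The difference in mean log2 ratio was -0.85 with 0.5 added to each FPKM and -0.81 with nothing added. Both had p = 0.1 by a two-sided exact permutation test, the smallest p that 3 against 3 libraries allow. With 0.5 added, p was 0.25 in that test after adjustment over 5 ratios. Cldn18 kept nearly the same ratio to Sftpc, 0.0370 ± 0.0036 in the BPVB group and 0.0373 ± 0.0088 in the sham group, with overlapping groups and a log2 difference of 0.012 with nothing added (exact p = 1). Adding 0.5 made that difference -0.38 (exact p = 0.2), because the addition weighs on Cldn18 in the sham libraries. Aqp5 to Sftpc was 0.0177 ± 0.00082 and 0.0219 ± 0.0060, with overlapping groups and a log2 difference of -0.27 with nothing added (exact p = 0.4) and -0.88 with 0.5 added (exact p = 0.1).

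The ratio of Cldn18 to Ager was 0.256, 0.223 and 0.273 after banding and 0.135, 0.190 and 0.111 after sham surgery. The groups did not overlap, and the means of 0.251 ± 0.025 and 0.145 ± 0.040 (SD, n = 3) gave a log2 difference of 0.82 with nothing added (exact p = 0.1) and 0.47 with 0.5 added (exact p = 0.2). For Ager to Epcam the ratio was 11.1, 12.0 and 16.8 after banding and 16.3, 18.02 and 47.4 after sham surgery. The groups overlapped, sham replicate 3 stood far above the rest, and its Epcam value rested on 7 fragments. The log2 difference was 0.12 with 0.5 added (exact p = 0.5) and -0.88 with nothing added (exact p = 0.2), so it had no settled direction. With 3 libraries a group, none of the 5 ratios could pass an adjusted threshold of 0.05.

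**Figure D4:**
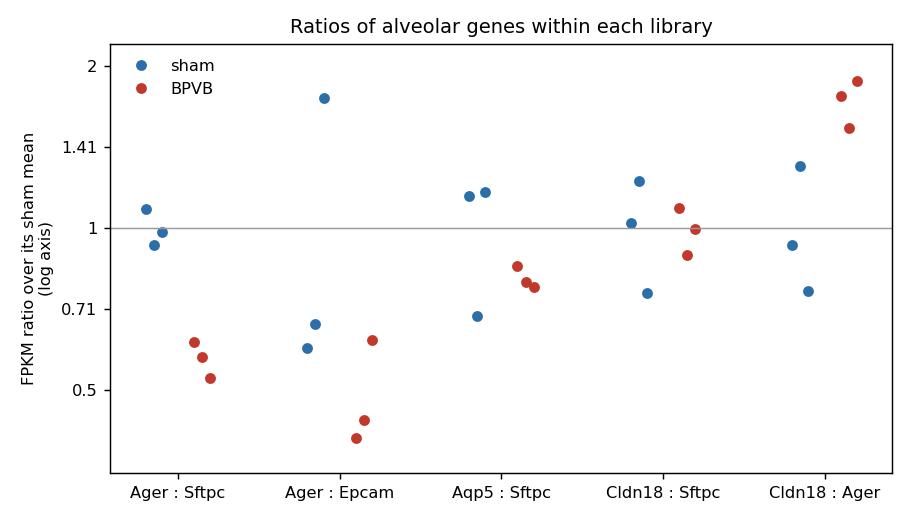
FPKM ratio of each gene pair in every library, divided by the mean ratio of the sham libraries and drawn on a log axis, with 1 point per rat. The BPVB points lie below all sham points for Ager to Sftpc and above all sham points for Cldn18 to Ager, and overlap the sham points for the other 3 pairs.

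The genes most like Ager over the 6 libraries were found by the Euclidean distance between log2(FPKM + 0.5) profiles, each centred on its sham mean, among genes other than the 8 described that had a mean of at least 1 FPKM. The nearest was Cdkn1a, the cell cycle inhibitor p21, at a distance of 0.15, with means of 30.7 ± 1.63 FPKM in the BPVB group and 4.99 ± 0.11 FPKM in the sham group. Lyc2, a lysozyme, was at 0.34, RT1-Bb, a chain of an MHC class II molecule, at 0.35, Cyp2e1, a cytochrome P450, at 0.38, and Spp1, the secreted protein osteopontin, at 0.39. On the same measure Aqp5 lay at 0.29 from Ager, Cldn18 at 0.93, Pdpn at 0.94, Rtkn2 at 1.70, and Emp2, Clic5 and Hopx at 3.42, 3.83 and 4.86. The values of Lyc2 may be shared with near-identical lysozyme genes, and its sham level rested on 3 to 8 fragments per library. Its distance depends on the added 0.5, as its means differed 22.4-fold against 6.10-fold for Ager. The distances of Aqp5 and Rtkn2 depend on it too, as their means differed 8.60-fold and 8.94-fold. In the limma-voom fit the log2 fold changes of Aqp5 and Rtkn2 were 3.11 and 3.37, against 2.60 for Ager. The order of the members by distance is therefore not settled.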

How the data were processed

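PVs of 3 BPVB and 3 sham rats, 1 rat per library, were sequenced. The authors deposited 1 FPKM table, whose values the recovered library totals account for without any further scaling. Per the labels, the submitters' processing notes name HISAT2 2.0.5, StringTie 1.3.3b, featureCounts 1.5.0-p3 and DESeq2 1.20.0, whereas the study's methods name fastp, HISAT and HTSeq-count. The genome build, annotation and strand setting are not given in the sources used here, so a gene and an overlapping antisense gene cannot be told apart. Table columns were matched to libraries by initial letter and number, and annotation columns were not used. All 6 columns of values were used.

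Fragment numbers were recovered from whole-number ratios of each gene's deposited FPKM values (100.0% of genes came out whole). Genes in the table held 99.78% of the recovered library totals. Intervals of counting cover counting error only, as several fragments may come from 1 molecule.

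Groups were compared with limma 3.58.1 in R 4.3.3 (lmFit, eBayes with trend) on log2(FPKM + 0.5) for genes with a mean of at least 0.1 FPKM, two-sided, with Benjamini-Hochberg adjustment over all 15150 tested genes. The procedure was tested on simulated data. The deposited unit being FPKM, a test on the log scale was the main one, and a limma-voom fit of the recovered fragments served as an alternative. Ratios were compared by exact permutation tests in Python 3.11.15 with scipy 1.17.1, numpy 2.4.6 and pandas 2.3.3, and drawn with matplotlib 3.10.9.

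The genes named are the 8 members, the first 2 genes and the highest and lowest of each of 17 other lists, relatives with a mean of at least 1 FPKM, and the 5 genes nearest to Ager. Other genes, among them those named for a call that another setting changed (such as Tek, Myl7, Abca3, Tagln and Cldn23) or for a level of 0 (Elf3, Areg), were chosen after their values were seen. The members and lists were chosen with earlier results of these data known.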

Additional observations from a re-analysis of the deposited data

How the results depend on the processing

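The 8 type 1 cell genes kept their direction and their side of the threshold in all 127 results under 16 alternatives, the largest adjusted p being 0.01, for Hopx without sham replicate 3 (limma). Rtkn2 was too low to be tested when a mean of at least 1 FPKM was required, which left 6 genes higher. Over all 143 named and listed genes, 2178 of 2259 results were unchanged in direction and call, 64 lost a call, 16 gained one and 1 reversed, the log2 fold change of Tagln, at 0.019 with quantile normalization. Counts of genes over the whole table stayed within 1.5 times, 2166 to 3027 higher and 1751 to 2559 lower. The log2 ratio of Ager to Epcam, 0.12, became -0.57 with 0.1 added and -0.88 with nothing added, and ran from -0.034 to 0.33 when 1 library was left out. That of Cldn18 to Sftpc became 0.012 with nothing added. The limma-voom fit and the ratios with nothing added were chosen after the data were seen. The correlations of deviations were small, from 0.014 to 0.025 for same-numbered libraries, and each library correlated best with its own number. With 3 libraries a group, these values cannot settle whether replicate numbers pair the samples. With a replicate block, 7 members were higher and 1 was lower, 2466 genes in all were higher, Abca3 (adjusted p = 0.065) and S100a1 (0.069) lost their calls, and Cldn23 gained one (0.044). Low counts limit the sham values of Rtkn2, Aqp5 and Epcam, which rest on 7 to 69 fragments per library.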
